A study of Mus musculus with 15 samples.

Results

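First-intron H3K4me3 summits are positions in the wild-type (WT) amygdala peak list that lay more than 1 kb from every annotated transcription start site (TSS), outside every exon, and inside the first intron of at least 1 transcript. Of the 24132 WT summits on chromosomes 1 to 19 and X, 2177 met this definition (9.02%, 95% Wilson interval 8.67 to 9.39). Transcripts were taken from GENCODE M21, and positions refer to GRCm38 (mm10). The remaining summits were 17255 within 1 kb of a TSS (called promoter summits here), 925 in exons, 1147 in later introns and 2628 between genes.

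The series comprised 15 samples of amygdala tissue from adult male mice, 11 immunoprecipitated for H3K4me3 and 4 inputs, with 20000 nuclei per sample. The study asked how loss of the H3K4 methyltransferase KMT2A and of the demethylase KDM5C balance each other, and the genotypes were WT, Kmt2a-HET, Kdm5c-KO and the Kmt2a-Kdm5c double mutant. The list analysed here was deposited as 1 list for the 2 WT samples, without saying whether their reads were pooled before peaks were called, and both were 129xB6 F1 hybrids carrying neither mutation. The mutant samples were not analysed here, so no genotypes were compared, and a peak list from whole amygdala tissue does not say which cell type carried a mark. As a check of the tissue, promoter summits were counted in gene lists, over genes with first-intron sequence that met the definition. They were present at 33 of 34 neurotransmitter receptor genes, 18 of 18 astrocyte markers, 16 of 17 oligodendrocyte markers and 3 of 22 genes of other tissues. Over all 16670 such protein-coding genes the share was 71.2% (70.5 to 71.9).

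Trimethylation of lysine 4 on histone H3 marks nucleosomes around the start sites of active genes, where it is placed by KMT2 and SETD1 enzymes and removed by KDM5 enzymes. It is strongest at promoters rich in CpG dinucleotides, which are bound by CXXC-domain proteins that bring in the methyltransferases. First introns begin directly downstream of the first exon, often hold regulatory elements and alternative start sites, and in neuronal genes can be very long.

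Each line of the list gave 1 position, the point of highest enrichment of a peak, and a score, the −log10 of the q-value of that enrichment over input. A higher score means stronger evidence of enrichment and is not an amount of H3K4me3, because it also depends on sequencing depth, which the list does not give. Peak widths were not given, so whether a first-intron summit belonged to a peak that also covered the TSS was not tested. With 1 list for both samples there was no spread between replicates, so no p-value was computed, and the intervals given cover counting error only.

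The windows below show the range of DNA under the strongest first-intron summits. Each is 300 bases of GRCm38 on the plus strand with the summit at base 151, in lower case with every CpG dinucleotide in capitals. The first 3 are the highest-scoring summits in CpG-rich windows, defined by a ratio of observed to expected CpG of at least 0.6 and a GC content of at least 50%. They lay in Basp1 (chr15:25412317-25412616), a growth-cone membrane phosphoprotein gene, in Vapa (chr17:65612392-65612691), a gene for an endoplasmic reticulum contact-site protein, and in Epc2 (chr2:49452432-49452731), a gene for a subunit of the NuA4 acetyltransferase family.
Basp1: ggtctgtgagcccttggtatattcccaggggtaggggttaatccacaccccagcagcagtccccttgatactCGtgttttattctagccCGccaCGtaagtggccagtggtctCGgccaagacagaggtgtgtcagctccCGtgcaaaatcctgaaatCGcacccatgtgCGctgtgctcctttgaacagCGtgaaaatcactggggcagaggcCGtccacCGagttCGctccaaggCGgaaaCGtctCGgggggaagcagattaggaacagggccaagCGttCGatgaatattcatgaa
Vapa: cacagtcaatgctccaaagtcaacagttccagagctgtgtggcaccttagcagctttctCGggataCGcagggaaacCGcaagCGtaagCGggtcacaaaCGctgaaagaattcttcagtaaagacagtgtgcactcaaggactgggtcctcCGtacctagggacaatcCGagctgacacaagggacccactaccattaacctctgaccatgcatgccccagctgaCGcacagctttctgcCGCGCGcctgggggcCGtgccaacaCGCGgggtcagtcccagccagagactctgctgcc
Epc2: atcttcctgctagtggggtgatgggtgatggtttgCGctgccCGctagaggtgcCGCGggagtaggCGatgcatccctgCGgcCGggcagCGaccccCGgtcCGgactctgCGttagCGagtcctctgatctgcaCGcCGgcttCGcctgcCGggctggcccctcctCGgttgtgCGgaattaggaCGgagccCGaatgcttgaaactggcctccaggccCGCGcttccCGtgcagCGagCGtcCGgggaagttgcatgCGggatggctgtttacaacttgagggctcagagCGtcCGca
The Basp1 window held 16 CpGs, the Vapa window 15 and the Epc2 window 29. Their scores were 268.8, 255.3 and 253.4.

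The next 2 windows are the highest-scoring summits with an observed over expected CpG ratio under 0.3. They lay in Ddx5 (chr11:106787152-106787451), which encodes an RNA helicase, and in Klf7 (chr1:64120031-64120330), which encodes a Krüppel-like transcription factor of developing neurons.
Ddx5: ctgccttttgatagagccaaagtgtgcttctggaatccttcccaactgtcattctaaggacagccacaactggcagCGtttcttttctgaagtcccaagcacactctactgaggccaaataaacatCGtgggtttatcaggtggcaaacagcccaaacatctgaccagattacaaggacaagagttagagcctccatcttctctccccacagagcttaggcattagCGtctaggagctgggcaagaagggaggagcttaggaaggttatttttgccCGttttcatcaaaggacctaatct
Klf7: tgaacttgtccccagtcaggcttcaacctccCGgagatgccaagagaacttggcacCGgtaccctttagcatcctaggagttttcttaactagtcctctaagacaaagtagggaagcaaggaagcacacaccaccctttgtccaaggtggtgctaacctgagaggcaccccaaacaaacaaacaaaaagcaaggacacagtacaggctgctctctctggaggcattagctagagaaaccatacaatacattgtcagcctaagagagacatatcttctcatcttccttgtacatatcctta
The Ddx5 window held 4 CpGs and the Klf7 window 2. Their scores of 317.4 and 296.3 exceeded those of the CpG-rich windows, so a high score was found at both kinds of sequence.

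Most first-intron summits scored low. The median score was 8.95 (quartiles 4.87 and 23.6, range 1.23 to 317.4), against 102.3 over the whole list. Of the 2177 summits, 1179 scored below 10 (54.2%, 52.1 to 56.2) and 204 scored 100 or more (9.37%, 8.22 to 10.7). Promoter summits had a median of 165.2, and a first-intron summit was the higher one in 13.3% of all pairs of a first-intron and a promoter summit. Later-intron summits had a median of 9.94, exonic summits 14.3 and intergenic summits 15.4. A first-intron summit scored higher in 47.7% of pairs with a later-intron summit and in 39.1% of pairs with an intergenic summit. Scores of 150 or more were found at 6.20% of first-intron summits (5.26 to 7.29), at 7.46% of exonic summits (5.94 to 9.33), at 4.64% of intergenic summits (3.90 to 5.52) and at 2.18% of later-intron summits (1.48 to 3.20). Scores of 100 or more were found at 13.4% of exonic, 10.01% of intergenic and 5.75% of later-intron summits.

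First-intron summits lay near TSSs, within the limit the definition set. The median distance to the nearest TSS was 2940 bp (quartiles 1738 and 7400 bp), with a range from 1002 to 327837 bp. Of the 2177, 675 lay within 2 kb of a TSS (31.0%, 29.1 to 33.0), 1465 within 5 kb (67.3%, 65.3 to 69.2) and 246 more than 20 kb away (11.3%, 10.04 to 12.7). The nearest TSS belonged to a gene whose first intron held the summit in 66.5% of cases. In first introns of 20 kb or more, which held 1276 of the summits, 43.9% of them fell in the first 10% of the intron (41.2 to 46.6) and 5.25% in the last 10% (4.16 to 6.61).

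To account for the amount of sequence in each class, summits were also counted per megabase (Mb) of sequence that met the definition. First introns held 5.10 summits per Mb (4.89 to 5.32, Poisson) over 426.6 Mb, later introns 1.96 (1.85 to 2.08) and intergenic sequence 1.90 (1.83 to 1.98). The ratio of first to later introns was 2.60 (2.42 to 2.80). At 1 to 2 kb from a TSS the densities were 15.2 per Mb (14.1 to 16.4) in first introns, 4.34 (3.58 to 5.21) in later introns and 4.06 (3.48 to 4.72) between genes. At 3 to 5 kb first introns held 6.91 per Mb and later introns 2.81. At 10 to 20 kb these densities were 2.48 (2.16 to 2.85) and 1.72 (1.49 to 1.97), and intergenic sequence held 2.67 (2.46 to 2.89). Beyond 50 kb first introns held 1.42 per Mb (1.10 to 1.81) and later introns 1.18 (0.998 to 1.40), with overlapping intervals, and intergenic sequence 0.575.

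**Figure D1:**
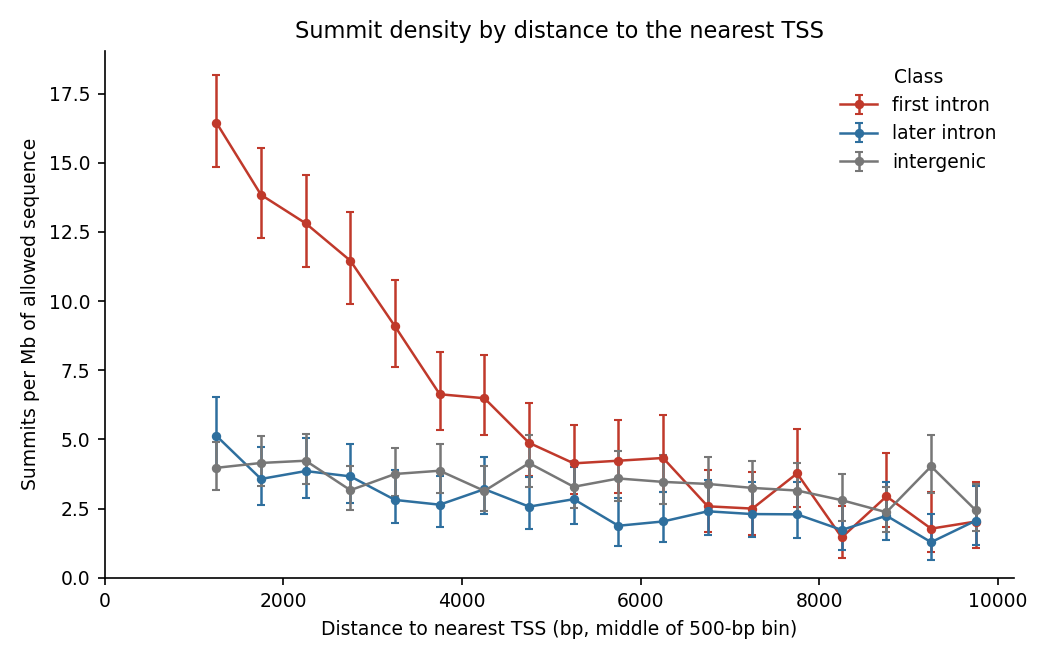
Summits per Mb of allowed sequence (vertical axis) against the distance to the nearest TSS in bins of 500 bp, for first introns, later introns and intergenic sequence; bars are 95% Poisson intervals. First introns fall from 16.5 per Mb in the bin that starts at 1000 bp to 4.14 in the bin that starts at 5000 bp.

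Scores fell across the definition's own limit. First-intron summits 1000 to 1250 bp from a TSS, just inside the limit, had a median score of 18.8 (n = 233), and those 750 to 1000 bp from a TSS, which the definition left out, had a median of 123 (n = 438). Among those included, the median was 9.05 at 1 to 2 kb, 6.89 at 2 to 3 kb, 8.34 at 3 to 5 kb, 9.89 at 5 to 10 kb and 11.4 at 10 to 20 kb. The share with a score of 100 or more was 20.1% at 1 to 2 kb (17.3 to 23.3), 4.01% at 2 to 3 kb (2.52 to 6.33) and 8.74% at 10 to 20 kb (5.60 to 13.4). Beyond 50 kb it was 0 of 66 summits, with an upper Wilson bound of 5.5%.

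**Figure D2:**
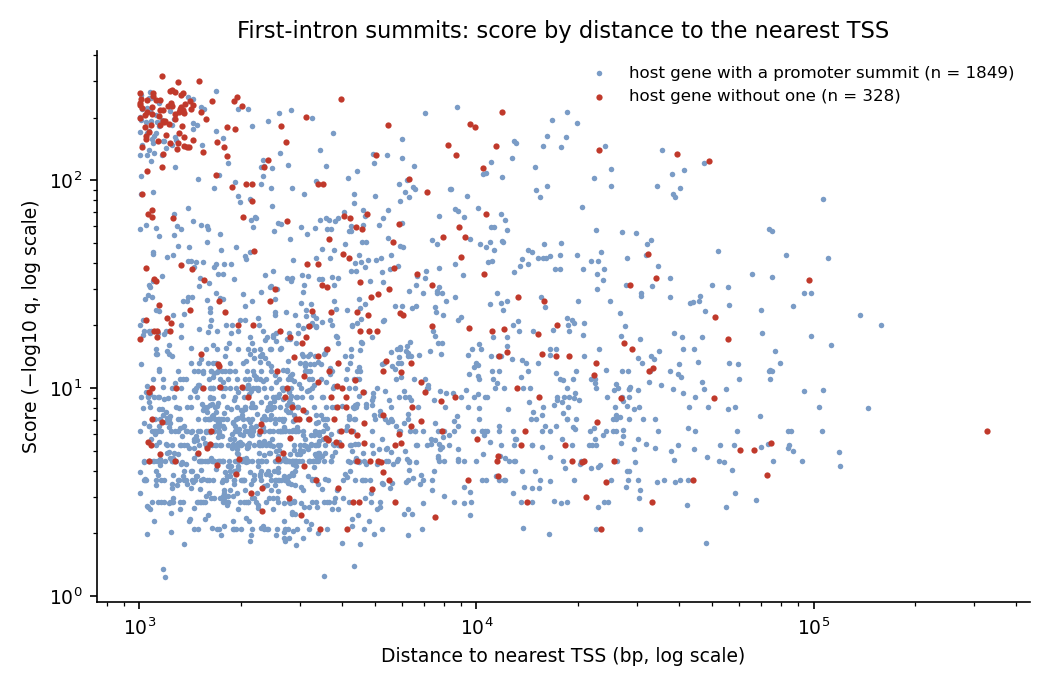
Score (−log10 q, log axis) of each first-intron summit against its distance to the nearest TSS in bp (log axis), colored by whether the host gene had a promoter summit of its own. The strongest summits without a host promoter summit gather at 1 to 2 kb, where the 125 of them had a median of 155.

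The summits within 2 kb of a TSS differed in score with the promoter of the host gene, but this split was not independent of the definition. A start-site peak with its summit just past 1 kb counts as a first-intron summit and can leave its host without a promoter summit. How many summits were of this kind was not tested. For 125 of them the host had no summit within 1 kb of any of its own TSSs, and their median score was 155 (quartiles 23.2 and 218.5). For the other 550 the host had such a promoter summit, and their median score was 7.13 (quartiles 4.45 and 18.8). Scores of 100 or more were found in 62.4% of the former (53.7 to 70.4) and 10.5% of the latter (8.25 to 13.4). Farther than 2 kb from a TSS the medians were 12.4 for the 203 summits whose host had no promoter summit and 8.07 for the 1299 whose host had one. Of the 135 first-intron summits scoring 150 or more, 109 lay within 2 kb of a TSS (80.7%, 73.3 to 86.5). No promoter summit of any gene lay within 2 kb of 114 of the 135 (84.4%, 77.4 to 89.6). Most first-intron summits of any score also lacked one, as 501 of all 2177 had a promoter summit within 2 kb (23.0%, 21.3 to 24.8). Where the host promoter did have a summit, the first-intron summit scored lower in 1716 of 1849 cases (92.8%, 91.5 to 93.9), by a median of 159.7.

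The 10 highest-scoring first-intron summits lay 1002 to 1690 bp from a TSS. The host had no promoter summit in 8 of the 10, and 1 of the 10 windows was CpG-rich. The highest was in Ddx5 at chr11:106787302, with a score above 99.95% of all summits listed (317.4), 1165 bp from the TSS in a first intron of 1198 bp. Trim9, a brain-enriched ubiquitin ligase gene, followed with 299.3 at 1502 bp, and Klf7 with 296.3 at 1301 bp. Lrrn3, a gene for a neuronal leucine-rich repeat membrane protein, had a score of 271.0 and Basp1 268.8 at 1231 bp. Stox2, which encodes a storkhead-box protein, also reached 268.8, and it had a promoter summit of 127.5 at another of its TSSs. Acvr2a, a type II activin receptor gene, held a first-intron summit of 266.8 at 1075 bp beside a promoter summit of 122.7. Srgap3, a GTPase-activating protein gene of the Slit-Robo pathway, had 264.7. Rab6b, a small GTPase gene of Golgi transport in neurons, had 263.5, and Enc1, an actin-binding kelch protein gene, had 263.0. RefSeq placed a TSS within 1 kb of 4 of the 10 summits. For Stox2, Rab6b and Enc1 it lay 201, 458 and 111 bp away, where the nearest GENCODE TSS was 1690, 1002 and 1096 bp away.

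RefSeq start sites touched a minority of the first-intron summits. Within 1 kb of a RefSeq TSS lay 261 of the 2177 (11.99%, 10.7 to 13.4), with a median score of 32.2 against 8.07 for the rest. CpG-rich windows surrounded 27.2% of these 261 (22.2 to 32.9) and 9.92% of the other 1916 (8.66 to 11.3).

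Strong first-intron summits were also found away from TSSs. At 5 to 10, 10 to 20 and 20 to 50 kb, 5.00%, 8.74% and 5.56% of first-intron summits scored 100 or more. The share was 2.73% at 3 to 5 kb. Later-intron summits reached that score in 4.76%, 2.93% and 6.90% at the same 3 distances. Beyond 50 kb the shares were 0% of first-intron and 4.93% of later-intron summits. Of the 712 that lay more than 5 kb from a TSS, 41 scored 100 or more, and 9 of the 41 were within 1 kb of a RefSeq TSS. The strongest of these distal summits were chosen for naming after their values were seen. The long noncoding RNA genes Gm5535 and Lncppara held summits of 224.7 and 211.5, at 8753 and 18575 bp from the nearest TSS. Gm15738, an antisense gene, also reached 211.5, at 11940 bp from the nearest GENCODE TSS and 1079 bp from a RefSeq TSS. Lncppara also held a summit of 194.1, 1815 bp from its stronger one. The summit of Slc1a6, a glutamate transporter gene, scored 210.8 and lay 7031 bp from the nearest GENCODE TSS but 69 bp from a RefSeq TSS. Dlg2, a postsynaptic scaffold gene, held one of 187.3, 19877 bp from the nearest GENCODE TSS and 3530 bp from a RefSeq TSS.

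The 5 farthest summits had scores of 4.21 to 22.4. They lay in Dcc, the netrin receptor gene (327837 bp, score 6.20), Ntm, a neuronal cell adhesion gene of the IgLON family (158081 bp, score 20), Hs3st4, a heparan sulfate sulfotransferase gene (145119 bp, score 7.98), Rora, a nuclear receptor gene (136909 bp, score 22.4), and Magi1, a membrane scaffold gene (119634 bp, score 4.21). Promoter summits of 134.9 to 249.5 were present at Ntm, Hs3st4, Rora and Magi1, and Dcc had none. For Hs3st4 and Rora the nearest RefSeq TSS was 10591 and 26866 bp away, so the distance depended on the annotation.

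The 2177 summits were assigned to 1624 host genes, of which 1416 were protein-coding. Protein-coding hosts held 1907 of the summits (87.6%), long intergenic noncoding RNA (lincRNA) genes 158 (7.26%), antisense genes 73 (3.35%) and processed transcripts 30 (1.38%). The first intron of more than 1 gene held the position of 79 summits, and 1449 (66.6%, 64.6 to 68.5) lay in the first intron of every transcript that spanned them. A promoter summit was present at 1259 of the 1416 protein-coding hosts (88.9%, 87.2 to 90.4). Among the 15205 protein-coding genes with first-intron sequence but no such summit it was present at 69.5% (68.8 to 70.2). Read the other way, 11.0% of genes with a promoter summit (10.4 to 11.6) and 3.36% of genes without one (2.88 to 3.91) held a first-intron summit. The median promoter score was 184.7 at protein-coding hosts and 198.5 at the other genes with a promoter summit.

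Length moved with these shares. The longest first intron had a median of 31621 bp in protein-coding hosts and 5845 bp in the other genes. Of protein-coding genes whose longest first intron was under 5 kb, 2.05% held a first-intron summit (1.74 to 2.40). The share was 6.55% at 5 to 20 kb, 16.7% at 20 to 50 kb, 30.5% at 50 to 100 kb and 46.0% at 100 kb or more (42.1 to 49.9). Per Mb of allowed sequence the order was the opposite, from 13.0 (11.1 to 15.2) in introns under 5 kb to 3.51 (3.21 to 3.83) in introns of 100 kb or more. Over all distances, first introns of genes with a promoter summit held 5.63 per Mb (5.375 to 5.89). Those of genes without one held 3.33 (2.98 to 3.72). At 1 to 2 kb from a TSS the densities were 17.6 (16.2 to 19.15) and 9.51 (7.91 to 11.3). The gap was widest at 2 to 3 kb, with 15.5 (14.0 to 17.1) and 3.51 (2.43 to 4.91). At 3 to 5 kb they were 7.73 (6.88 to 8.65) and 4.595 (3.54 to 5.87). Beyond 50 kb these densities were 1.43 (1.08 to 1.85) and 1.38 (0.633 to 2.63), with overlapping intervals.

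Most first-intron summits lay far from any other of their class, with a median distance of 130297 bp (quartiles 8632 and 548120 bp). Another first-intron summit lay within 5 kb of 485 of them (22.3%, 20.6 to 24.1), and a promoter summit within 5 kb of 1077 (49.5%, 47.4 to 51.6). The share with a neighbor of its own class within 5 kb was 15.0% for later-intron summits (13.0 to 17.2), 14.1% for intergenic summits (12.8 to 15.5) and 23.4% for promoter summits (22.8 to 24.0). These shares were not adjusted for the density of summits in each class. The smallest spacing was 298 bp, in Ece1, the endothelin-converting enzyme gene. Linking neighbors within 5 kb gave 222 chains of 2 or more, of which 32 had at least 3 and the largest had 5. A single first-intron summit was found in 1275 of the 1624 hosts (78.5%), and 95 hosts had 3 or more and 20 had 5 or more. The genes and chains named in the next paragraphs are those with the most members.

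Gm20388 held the most, with 22 summits assigned to it, but this model reads through many neighboring genes. Its first intron spanned 4384418 bp and contained 31 first-intron summits in all. Leaving the model out left 2158 of the 2177 summits. Maml3, which encodes a Mastermind-like coactivator of Notch signaling, held 11 summits in 2 first introns, the longer of 246602 bp. Their scores ranged from 10.05 to 209.6 with a median of 28.7, and 5 of the 11 windows were CpG-rich. The strongest, at chr3:52102472, lay 2604 bp from a TSS, and the nearest promoter summit of any gene was 95923 bp away. The Maml3 promoter summit, with 15.5, was therefore at another of its TSSs. The 10 other Maml3 summits scored 64.5 or less.

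Bcl11b, a zinc-finger transcription factor gene of forebrain projection neurons, held 9 summits and no promoter summit. The strongest scored 133.1 at 1174 bp from the nearest GENCODE TSS and 303 bp from a RefSeq TSS. The other 8 lay 5103 to 74825 bp from the nearest GENCODE TSS and scored 3.77 to 28.5. Among them, those scoring 3.805, 6.85 and 19.3 lay 575, 456 and 859 bp from a RefSeq TSS, so their distance depended on the annotation. Foxn3, a forkhead repressor gene with 11 annotated first introns, also held 9 summits, with scores from 2.48 to 182.9. Its promoter score was 178, and the promoter summit nearest to the strongest lay 65464 bp away. Bcor, a corepressor gene on chromosome X, held 8 summits of 2.84 to 67.05, and 7 of its 8 windows were CpG-rich. Nfib, a nuclear factor I gene of neuronal and glial differentiation with a promoter score of 5.50, held 8 summits of 4.45 to 192.4. Of these summits 5 formed a chain of 9260 bp. The Nfib summits of 192.4 and 87.6 lay 486 and 166 bp from a RefSeq TSS. Nhsl1, an actin-regulating gene, held 8 with none above 44.9. Rbfox1, a neuronal splicing factor gene with a promoter score of 198.1, held 8 with none above 55.8, and Tshz2, a teashirt zinc-finger gene, held 8 with none above 51.8. The lincRNA gene Gm29683 and Zfhx3, a homeobox transcription factor gene, held 7 each, with highest scores of 87.6 and 47.7.

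**Figure D3:**
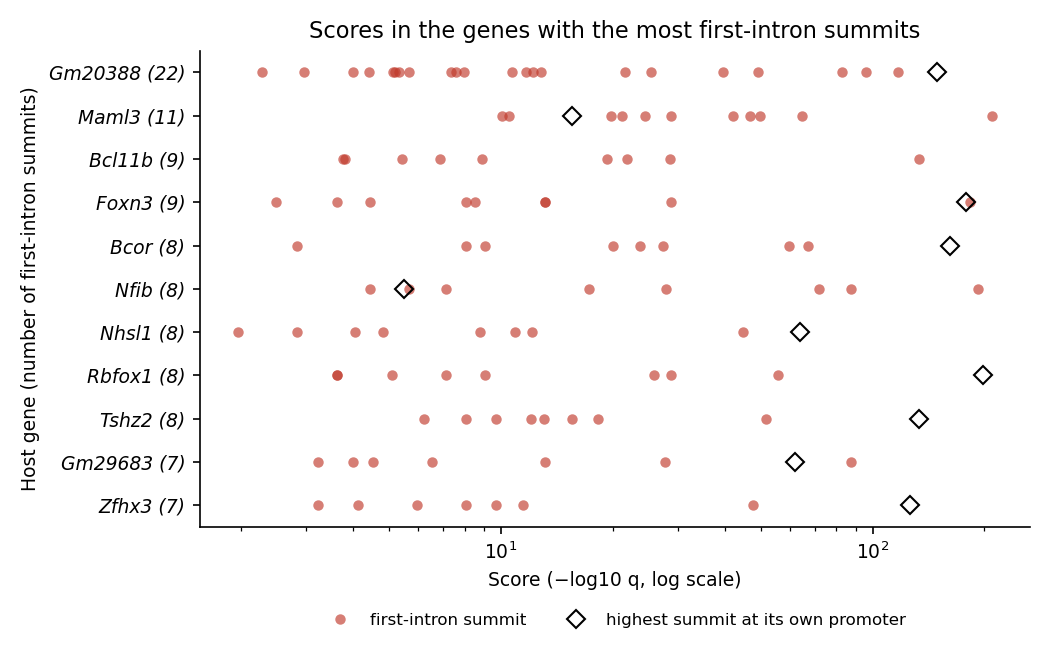
Score (−log10 q, log axis) of each first-intron summit in the 11 host genes with 7 or more, one row per gene with the number of summits in brackets; diamonds mark the highest summit at the gene's own promoter. In Maml3, Nfib, Foxn3 and Gm29683 the highest first-intron summit scores above the diamond, and Bcl11b has no diamond. A diamond can stand for a TSS other than the one nearest that summit.

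The DNA around first-intron summits differed from first-intron sequence in general. The tiles used as background covered the allowed first-intron sequence of all genes, with or without a summit. They were not matched for distance to a TSS. The median observed over expected CpG ratio in 300 bp was 0.352 (quartiles 0.214 and 0.521), against 0.156 over 1368012 tiles of 300 bp from first introns. It was 0.422 at later-intron summits, 0.498 at intergenic summits and 0.651 at promoter summits. CpG-rich windows made up 11.99% of first-intron summits (10.7 to 13.4), 0.279% of the tiles, 22.9% of intergenic summits and 56.0% of promoter summits. The median GC content was 50.3%, against 42.3% in the tiles. Repeat-masked bases made up a median of 7.33% of the window, against 20% of a tile. Stronger summits were more often CpG-rich: 3.89% below a score of 5 (2.58 to 5.82), 12.3% from 10 to 50 (10.1 to 15.1) and 37.0% at 150 or more (29.4 to 45.4). The ratio was lowest at 2 to 3 kb from a TSS, with a median of 0.266, and was 0.450 at 20 to 50 kb.

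**Figure D4:**
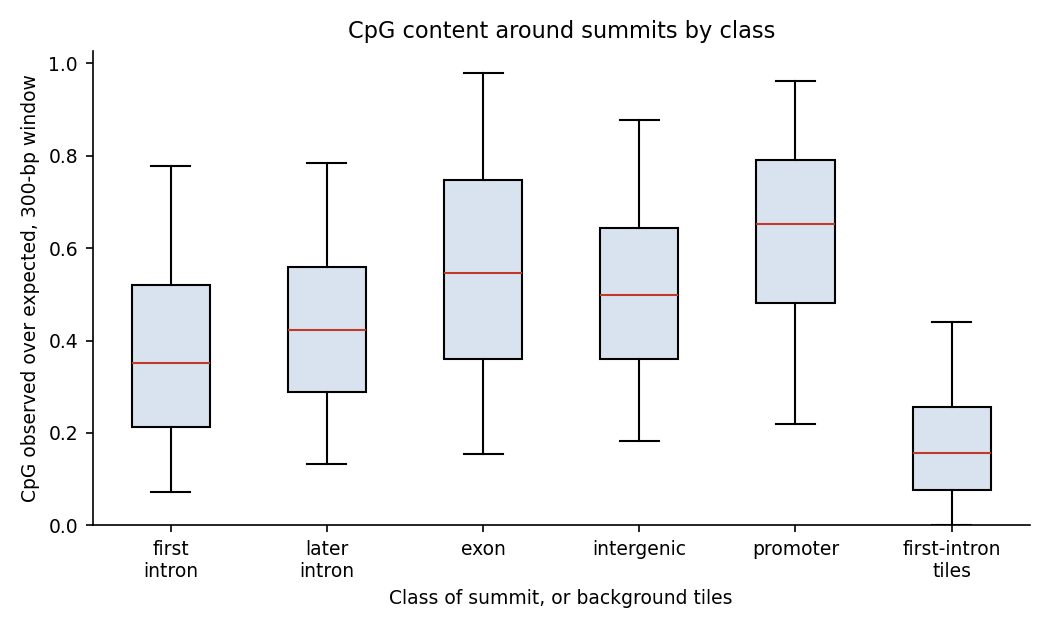
Observed over expected CpG in 300 bp around summits of each class and in tiles of first introns; boxes span the quartiles with the median in red, and whiskers the 5th to 95th percentiles. First-intron summits have the lowest median of the classes of summit (0.352) and lie above the tiles (0.156).

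Short motifs were searched on both strands of the same windows as a description of sequence. The GC box GGGCGGGG was present in 4.87% of first-intron windows (4.04 to 5.86) and 0.802% of tiles, and in 15.3% of the CpG-rich ones (11.5 to 20.2). The cyclic AMP response element TGACGTCA was present in 16 windows (0.735%) and in 0.156% of tiles. The E-box CAGCTG was present in 18.9% (17.3 to 20.6) and 11.3% of tiles. The CTCF core CNAGGGGGC was present in 1.24% and 0.430% of tiles. The AP-1 motif TGANTCA was present in 7.99% (6.93 to 9.21) and 9.07% of tiles, and the TATA box TATAAA in 11.7% (10.4 to 13.1) and 25.8% of tiles. The base composition of the windows, given above, moved with these shares, and its part in them was not tested.

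Gene lists of brain cell types and functions differed in how many of their genes held a first-intron summit. The background was 1465 of 16670 protein-coding genes with first-intron sequence (8.79%, 8.37 to 9.23), or 24.8% (23.5 to 26.2) of those whose longest first intron was 20 kb or more. Among neuronal transcription factors 23 of 36 genes held one (63.9%, 47.6 to 77.5), 61 summits in all. Their median longest first intron was 42818 bp, against 6608 bp over all protein-coding genes. Per Mb they held 17.2 summits (13.2 to 22.1), against 5.37 (5.13 to 5.62) over all protein-coding genes. Among those with a longest first intron of 20 kb or more, 18 of 24 held one (75%, 55.1 to 88.0), with 16.2 summits per Mb (12.2 to 21.1) against 4.62 (4.37 to 4.87) over all such genes. Nfib led with 192.4, followed by Tle4, a Groucho-family corepressor gene, with 168.8 at 1120 bp from the TSS and 282 bp from a RefSeq TSS. Bcl11b and Mef2c, a MADS-box factor gene of neuronal maturation, followed with 133.1 each, the latter 4923 bp from the TSS.

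Synaptic adhesion and scaffold genes held a first-intron summit in 20 of 39 cases (51.3%, 36.2 to 66.1), with a median longest first intron of 161830 bp. Per Mb they held 2.58 (1.78 to 3.62), against 5.37 (5.13 to 5.62) over all protein-coding genes. Over all protein-coding genes with a first intron of 100 kb or more the density was 3.51 (3.21 to 3.83), an interval that overlaps theirs. Of those with a longest first intron of 20 kb or more, 18 of 29 held one (62.1%, 44.0 to 77.3). Their density was 2.36 per Mb (1.59 to 3.37), below the 4.62 (4.37 to 4.87) over all protein-coding genes of that length. Cadm1, a synaptic cell adhesion gene with no promoter summit, had a first-intron summit of 232.3 at 1368 bp. Nrxn2, a presynaptic neurexin gene with a promoter score of 7.67, had 219.0 at 1017 bp, and the nearest promoter summit was 9364 bp away. Ntm, with a promoter score of 218.2, had 191.3 at 1163 bp, and the nearest promoter summit was 465282 bp away. Ion channel genes held one in 11 of 38 cases (28.9%, 17.0 to 44.8). At 20 kb or more it was 11 of 35 (31.4%, 18.6 to 48.0), an interval that includes the background share. Their density at that length was 2.44 per Mb (1.37 to 4.03), below the 4.62 (4.37 to 4.87) over all such protein-coding genes. That background fell with length, from 5.39 at 50 to 100 kb to 3.51 (3.21 to 3.83) at 100 kb or more. The latter lies inside the ion channel interval, and the lists were not matched for length. Kcnd2 had 99.0 at 3349 bp, Kcnq3 had 10.7 at 46638 bp, and both encode potassium channel subunits. Neurotransmitter receptor genes held one in 9 of 34 cases (26.5%, 14.6 to 43.1). At 20 kb or more it was 8 of 21 (38.1%, 20.8 to 59.1), which also includes the background share. Their density at that length was 2.73 per Mb (1.25 to 5.18), an interval that includes the background density. Their highest were in glutamate receptor genes, with 140.1 in Grik4 at 35506 bp from the nearest GENCODE TSS but 189 bp from a RefSeq TSS, 47.7 in Grin2b at 6057 bp and 28.5 in Gria1 at 2026 bp.

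Lists of other cell types also contained hosts. Oligodendrocyte markers held a first-intron summit in 8 of 17 cases (47.1%, 26.2 to 69.0) and 31.2 per Mb (16.6 to 53.3). Over all protein-coding genes the share was 8.79% and the density 5.37 per Mb. Qk, an RNA-binding protein gene of myelination, had 224.7 at 1528 bp. Prr5l, a gene of an mTOR complex regulator, had 58.8 at 1122 bp. Of the oligodendrocyte precursor markers 4 of 10 were hosts, led by Cspg4, the NG2 proteoglycan gene, with 33.3 and no promoter summit. Sox6 and Tnr, a transcription factor gene and the tenascin-R gene, had 9.05 each. Endothelial and mural markers were hosts in 7 of 16 cases (43.8%, 23.1 to 66.8). The ETS factor genes Fli1 and Erg had 66.6 and 37.9 with no promoter summit by GENCODE TSSs, but 944 and 569 bp from a RefSeq TSS. Kdr, a vascular endothelial growth factor receptor gene, had 19.96. Astrocyte markers were hosts in 3 of 18 cases (16.7%, 5.84 to 39.2), with 7.13 in Gpc5, a glypican gene, 4.69 in Acsbg1, an acyl-CoA synthetase gene, and 2.82 in Ntsr2, a neurotensin receptor gene. Microglia markers were hosts in 3 of 16 cases (18.8%, 6.59 to 43.0). The astrocyte and microglia intervals include the background share of 8.79%. Per Mb the endothelial and mural markers held 18.9 (9.08 to 34.8) and the microglia markers 16.9 (4.62 to 43.4). Astrocyte markers held 9.68 (2.00 to 28.3) and precursor markers 5.56 (1.81 to 13.0). Of these density intervals, only the endothelial and mural one excludes the background of 5.37. At 20 kb or more these lists held 2 to 9 genes each, of which 4 of 5 oligodendrocyte, 3 of 4 precursor, 5 of 9 endothelial and mural, 1 of 6 astrocyte and 2 of 2 microglia markers were hosts. The share over all protein-coding genes of that length was 24.8%.

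Chromatin regulators were hosts in 10 of 38 cases (26.3%, 15.0 to 42.0), with 8.48 summits per Mb (4.52 to 14.5), and in 9 of 19 cases at 20 kb or more (47.4%, 27.3 to 68.3). Kdm6b, a demethylase gene of lysine 27, had 219.0 at 2095 bp from the nearest GENCODE TSS, 350 bp from a RefSeq TSS, beside a promoter score of 6.24, Dnmt3a, a DNA methyltransferase gene, had 215.3 at 1075 bp, and Arid1a, a chromatin remodeler subunit gene, had 172.5 at 1693 bp. The targeted genes of the study were not hosts. Kmt2a offered 21394 bp of first-intron sequence and Kdm5c 3360 bp, and their promoter summits scored 215.3 and 183.5. At the 5.37 summits per Mb of all protein-coding genes, sequence this short would usually hold none. No immediate early gene (0 of 14, upper Wilson bound 21.5%) and none of the genes of other tissues (0 of 22, upper bound 14.9%) was a host. Both intervals include the 8.79% over all protein-coding genes. The median longest first intron was 3842 bp and 2858.5 bp in these lists. Of all protein-coding genes under 5 kb, 2.05% were hosts, so the absence of hosts says little about either list. The immediate early genes offered 0.144 Mb of allowed sequence and all 14 had promoter summits, whereas 3 of the 22 genes of other tissues had one.

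**Figure D5:**
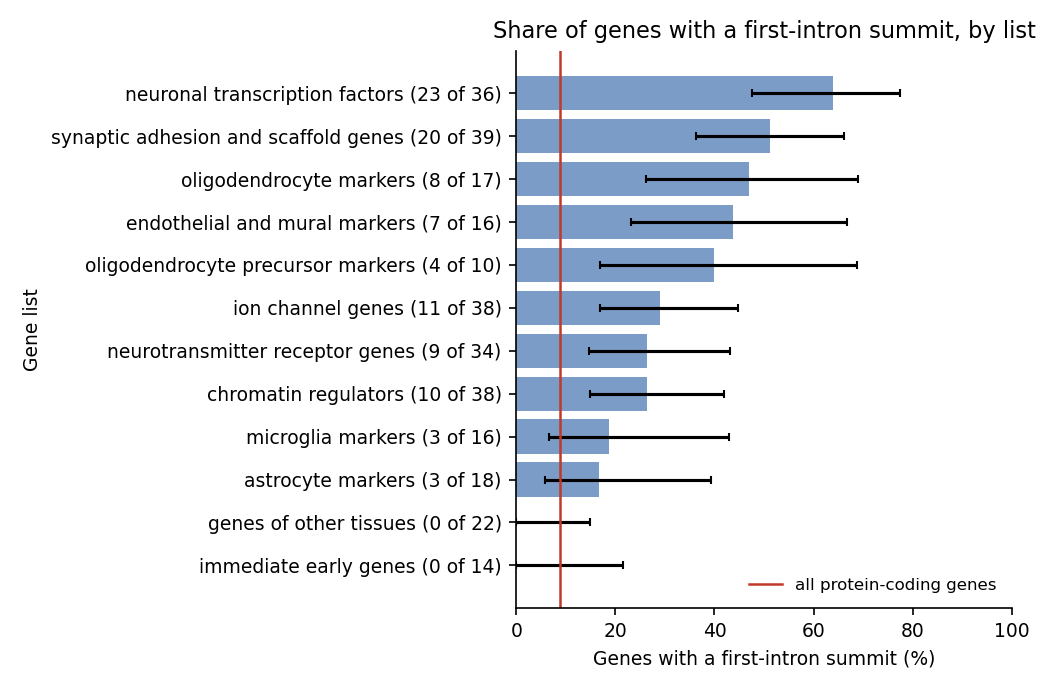
Percentage of genes in each list with a first-intron summit, over the genes with first-intron sequence that met the definition; bars carry 95% Wilson intervals, counts stand in brackets, and the red line marks all protein-coding genes (8.79%). Lists differ in first-intron length, from a median of 2858 bp in genes of other tissues to 161830 bp in synaptic genes.

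Across chromosomes the density ran from 3.24 per Mb on chromosome 14 (2.50 to 4.13) and 3.36 on chromosome X (2.56 to 4.33) to 7.10 on chromosome 11 (5.996 to 8.34).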

How the data were processed

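Amygdala nuclei were digested with micrococcal nuclease, fragments were recovered with an H3K4me3 antibody, and libraries were sequenced. According to the methods and the submitters' processing notes, Bowtie mapped the reads to mm10, reads that mapped to more than 1 place were dropped, and MACS2 2.1.0.20140616 found peaks relative to input. The authors deposited 1 list for both WT samples, in which each line holds a summit of 1 bp and a score, read here as the −log10 of the q-value. The methods describe removal of black-list regions, but whether it was applied to the deposited list is not stated. The list holds no read counts, so the depth behind each score cannot be read from it.

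Of 24162 summits, those on chromosomes 1 to 19 and X were kept and assigned in the order promoter (within 1 kb of a TSS of any GENCODE M21 transcript), exon, first intron, later intron and intergenic. A summit in first introns of several genes was assigned to 1 host, a protein-coding gene before others and then the one with the nearest TSS. The promoter score of a gene is its highest summit within 1 kb of any of its TSSs, not only the TSS nearest a first-intron summit. Allowed sequence is every base that would fall in that class. The GRCm38.p6 RefSeq assembly gave the sequences and the RefSeq TSSs. Shares have 95% Wilson intervals and densities 95% Poisson intervals, and no test was run because summits of 1 list are not replicates. The classes, distances and intervals were tested on simulated data.

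The members and the 12 gene lists were chosen with earlier results of these data known. Named were the 10 highest-scoring summits, the genes with the most summits, the 5 farthest summits, up to 3 hosts per list with the highest-scoring summits, Kmt2a and Kdm5c. Distal summits scoring 100 or more, the gene with the closest pair, and genes tied in number of summits were named after their values were seen. Single microglial genes, 1 named host each of the ion channel and oligodendrocyte lists and 1 sequence window are not reported here. Tables were made with pandas 2.3.3 and numpy 2.4.6 under Python 3.11.15, intervals with scipy 1.17.1, sequences were read with samtools 1.23.1 and pysam 0.24.0, and matplotlib 3.10.9 drew the plots.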

Additional observations from a re-analysis of the deposited data

How the results depend on the processing

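Alternatives changed the distance limit, the TSSs, the score threshold, the joining of summits, the intron definition and the hosts; RefSeq TSSs and removal of Gm20388 were added after seeing the data. The number of first-intron summits was 1078 with a limit of 3 kb from every TSS, 998 at scores of 10 or more and 1449 when the intron had to be the first of every spanning transcript. With TSSs of protein-coding transcripts only it was 2910, with protein-coding hosts only 1907, with RefSeq TSSs added 1916 and without Gm20388 2158. The median score was 9.92 with the 3 kb limit and 9.61 with summits within 1 kb joined. The share within 5 kb of a TSS was 63.0% at scores of 10 or more and 49.5% with protein-coding TSSs only. The share of hosts of every biotype with a promoter summit, 83.8%, was 72.0% at scores of 10 or more. The share with another first-intron summit within 5 kb was 9.52% at scores of 10 or more and 13.2% with joined summits, and 25.8% within 10 kb. The density ratio of first to later introns was 2.39 at scores of 10 or more, 1.77 with the 3 kb limit and 2.38 with the first intron of every transcript. The median CpG ratio was 0.431 at scores of 10 or more and 0.404 with the 3 kb limit. The cause of these shifts was not tested. No paired analysis was possible because the WT samples shared 1 list, so no replicate could be left out either.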
